A study of Mus musculus with 13 samples.

Results

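The genes described here are 10 transcriptional targets of the tumour suppressor p53: Cdkn1a, Mdm2, Ccng1, Trp53inp1, Bbc3, Bax, Phlda3, Eda2r, Zmat3 and Plk2. They were matched by gene name in the authors' deposited table of 35734 genes, and all 10 were found. They were selected on the measured fall of Cdkn1a after Ikzf1 was expressed, so their differences between the groups are given below as a description, with no test. RNA-seq measured 4 control and 4 Ikzf1 libraries from retinal cells of CD1 mice at postnatal day 0. The control cells had been transfected with GFP and the Ikzf1 cells with Ikzf1-IRES-GFP, a construct that makes Ikaros and GFP from a single messenger. In both groups the retinas had been dissociated, transfected, kept in culture for 9 h and sorted for GFP, so that transfection, culture and sorting are shared by the controls. Each biological replicate held 400000 sorted cells in the control group and 300000 in the Ikzf1 group, and the promoter of the plasmids used for RNA-seq was not given in the sources used here. The study asked how Ikaros family factors shape the temporal identity of retinal progenitors.

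The p53 protein is a transcription factor that is kept low in unstressed cells and rises after DNA damage and other stresses. Its targets include inhibitors of the cell cycle, members of the cell death machinery and Mdm2, which sends p53 itself to degradation and so closes a feedback loop. In the developing retina, p53 is known for its part in the death of damaged progenitors and newborn neurons. Ikaros, the product of Ikzf1, is a zinc finger transcription factor that recruits chromatin regulators and is linked in the retina to early progenitor identity.

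The 8 libraries held 21.4 to 30.5 M estimated read pairs. Transcripts of Ikzf1 took 15.9 to 17.2% of the reads of the Ikzf1 libraries and 0.00723 to 0.00909% of those of the controls, which follows the labels. Levels are given as CPM, the usual count per unit of library size, with that size scaled by the TMM method, in which most genes are taken to be unchanged, or as TPM, which also divides by transcript length. With this scaling 59.3% of the tested genes differed between the groups (edgeR adjusted p under 0.05), 29.9% lower and 29.4% higher. The assumption may therefore not hold, and small log2 fold changes depend on it. The cells are labelled as retinal progenitors, and the controls held the progenitor genes Pax6 (358 ± 6.65 CPM) and Sox2 (161 ± 5.44 CPM, SD, n = 4 each). The same libraries held Otx2 (316 ± 19.7 CPM) and Crx (267 ± 17.8 CPM), which mark photoreceptor precursors. In bulk samples such as these, fewer cells of a type and less RNA per cell cannot be told apart, and this holds for every difference below.

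Of the 10 genes, 9 had a lower mean level and 1, Plk2, a higher one in the Ikzf1 libraries. For background, edgeR's quasi-likelihood test across 15540 genes called 29.9% lower and 29.4% higher at an adjusted p under 0.05, 59.3% together. Nothing is read from the count of 10 beside these shares, since the genes were chosen on this comparison. The lowest and highest libraries of the groups did not overlap for any of the 10, as for 53.2% of all tested genes. The 10 genes were among the more abundant ones, and of the 5813 genes with at least 40 CPM in controls 38.1% were lower and 67.0% were called in either direction. The level of 4 genes (Cdkn1a, Eda2r, Phlda3 and Ccng1) was lower by 1 or more in log2 units, beside 6.42% of all tested genes and 3.77% of those with at least 40 CPM. In 5 others the level in the Ikzf1 libraries was 74.8 to 82.6% of that in the controls. The median log2 fold change of the 10 was -0.40, and that of all tested genes was 0.00. Each of the 10 had between 523 and 13467 reads in every library, so counting error was small beside the differences described.

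**Figure D1:**
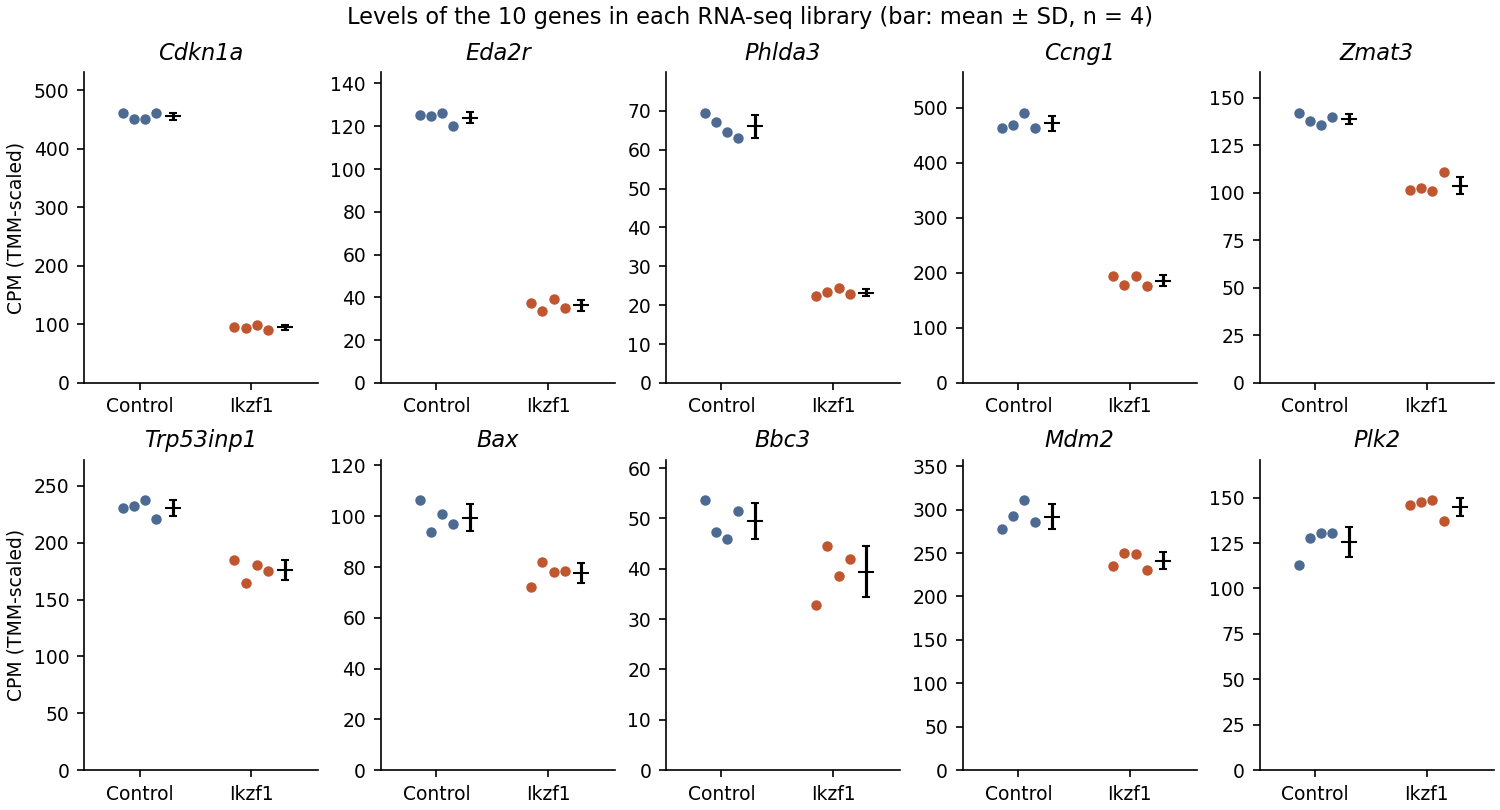
Level of each gene in every library, in CPM on TMM-scaled library sizes; points are libraries (4 controls, 4 Ikzf1 libraries), and the bar gives the mean ± SD. All 4 Ikzf1 libraries lie below all controls in 9 panels and above them in the panel of Plk2.

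Cdkn1a encodes p21, the inhibitor of cyclin-dependent kinases through which p53 holds cells out of the cycle. Its level was 462, 451, 451 and 461 CPM in controls 1 to 4. In Ikzf1 libraries 1 to 4 it was 95.8, 94.5, 99.0 and 89.9 CPM. Every Ikzf1 library thus lay far below the lowest control, and the spread within each group was small beside that gap. Its mean went from 456 ± 5.96 to 94.8 ± 3.77 CPM (SD, n = 4 each), so that 20.8% of the control level remained. This gave a log2 fold change of -2.27 ± 0.04 (SE, the standard error of the fit). Among the 15540 tested genes Cdkn1a had the 92nd lowest log2 fold change, which describes how it was chosen. The gene (ENSMUSG00000023067) lies on GRCm38 chromosome 17 from 29090976 to 29100727 on the plus strand.

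RefSeq lists 2 promoters for Cdkn1a, printed here because it changed most and because they differ in their motifs. Each sequence runs 5′ to 3′ on the strand of the gene, from 250 bases before to 50 bases after an annotated start, in build GRCm38.p6. The first lies at chr17:29090729-29091028 and the second at chr17:29093519-29093818, both on the plus strand. Capitals mark matches to the p53 consensus half-site or full site, and to TGGGAA, the core of the motif known for Ikaros, on either strand (TTCCCA where it reads on the other strand).
Cdkn1a promoter 1: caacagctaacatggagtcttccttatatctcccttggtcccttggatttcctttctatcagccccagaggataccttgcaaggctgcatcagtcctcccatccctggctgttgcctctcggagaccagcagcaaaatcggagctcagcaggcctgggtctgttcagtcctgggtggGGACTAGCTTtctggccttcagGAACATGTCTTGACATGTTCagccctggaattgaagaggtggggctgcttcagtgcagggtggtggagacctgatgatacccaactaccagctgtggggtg
Cdkn1a promoter 2: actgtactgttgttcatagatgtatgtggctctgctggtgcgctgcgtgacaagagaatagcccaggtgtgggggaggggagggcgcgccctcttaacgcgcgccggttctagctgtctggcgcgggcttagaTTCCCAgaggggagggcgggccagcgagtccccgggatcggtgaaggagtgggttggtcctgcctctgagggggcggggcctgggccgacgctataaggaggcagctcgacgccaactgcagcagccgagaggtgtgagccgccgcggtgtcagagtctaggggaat
The first promoter held exact half-sites 73 to 64 and 51 to 42 bases before the start. The second of these is part of a full p53 site, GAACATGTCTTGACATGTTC, 51 to 32 bases before the start, with 1 mismatch to the consensus. The second promoter held no p53 half-site and a TGGGAA on the minus strand, 117 to 112 bases before the start.

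Cdkn1a is annotated with 5 transcripts in the deposited files, of which 4 are described here, those with at least 1% of its reads in either group. ENSMUST00000023829 (1913 bases) held 94.8% of the reads of the gene in controls and 92.1% in the Ikzf1 libraries. It went from 432 ± 7.49 to 87.3 ± 3.97 CPM. ENSMUST00000233296 (2080 bases) went from 11.9 ± 1.64 to 3.42 ± 0.33 CPM and ENSMUST00000122348 (1172 bases) from 10.4 ± 1.98 to 2.45 ± 0.46 CPM (SD, n = 4 each). These 3 transcripts were lower in every Ikzf1 library than in every control. The shortest, ENSMUST00000119901 (922 bases), stood at 1.46 ± 0.43 CPM in controls and 1.53 ± 0.35 CPM in the Ikzf1 libraries, and its groups overlapped. Its share of the reads of the gene was 0.25 to 0.44% in controls and 1.12 to 2.14% in the Ikzf1 libraries. Its level is low, and salmon divides reads that fit several transcripts by a model. Which of the printed starts each transcript uses was not determined here.

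**Figure D2:**
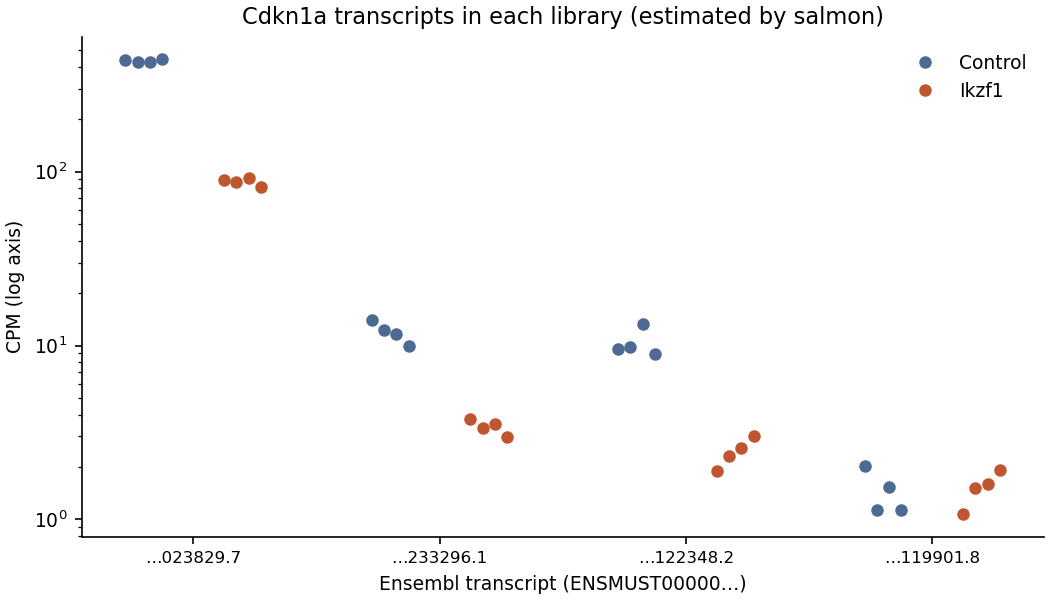
CPM (log axis) of the 4 described Cdkn1a transcripts, named by their Ensembl number, with 1 point for each library. The 3 most abundant transcripts are lower in all Ikzf1 libraries, while the shortest, at 1.46 CPM in controls and 1.53 CPM in the Ikzf1 libraries, overlaps between the groups.

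Ccng1, which encodes cyclin G1, a partner of protein phosphatase 2A that acts on Mdm2, was as abundant in reads as Cdkn1a in the controls. It stood at 464, 469, 491 and 463 CPM in controls 1 to 4. In Ikzf1 libraries 1 to 4 it stood at 195, 179, 194 and 175 CPM. The groups were widely separated, and the mean went from 471 ± 13.2 to 186 ± 10.2 CPM (SD, n = 4 each), or 39.4% of the control level. Its log2 fold change was -1.34 ± 0.05 (SE). Its only annotated transcript in the files, ENSMUST00000020576, has 3512 bases, so no change of transcripts enters this value. The gene (ENSMUSG00000020326) lies on GRCm38 chromosome 11 from 40748552 to 40755311 on the minus strand. Its promoter, at chr11:40755237-40755536 on the minus strand in GRCm38.p6, is shown because it is the other one that held a full p53 site (in capitals).
Ccng1 promoter: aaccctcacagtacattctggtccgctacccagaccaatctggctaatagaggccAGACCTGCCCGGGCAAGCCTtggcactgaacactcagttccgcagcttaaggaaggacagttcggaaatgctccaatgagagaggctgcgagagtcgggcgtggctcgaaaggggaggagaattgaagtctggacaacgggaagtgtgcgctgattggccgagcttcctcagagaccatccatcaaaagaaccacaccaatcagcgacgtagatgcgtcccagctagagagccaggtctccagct
The site, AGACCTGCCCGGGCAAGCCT, lay 195 to 176 bases before the annotated start with 1 mismatch, and its second part was an exact half-site.

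Mdm2, the ubiquitin ligase that binds p53 and marks it for degradation, was lower by less. The controls stood at 278, 292, 311 and 286 CPM. The Ikzf1 libraries stood at 235, 249.7, 249 and 230.5 CPM. The highest Ikzf1 library and the lowest control were close but did not overlap. The group means went from 292 ± 14.2 to 241 ± 9.70 CPM (SD, n = 4 each), or -0.28 ± 0.04 (SE) as log2 fold change. The gene (ENSMUSG00000020184) lies on GRCm38 chromosome 10 from 117688875 to 117710758 on the minus strand. Of its 9 annotated transcripts, the most abundant, ENSMUST00000020408, overlapped between the groups, at 162 ± 13.7 CPM in controls and 159 ± 7.66 CPM in the Ikzf1 libraries. It held 55.7% of the reads of the gene in controls and 66.2% in the Ikzf1 libraries. ENSMUST00000105263 went from 20.3 ± 3.88 to 10.2 ± 0.82 CPM and did not overlap. The division of reads between the transcripts was uneven: ENSMUST00000155285 ranged from 46.5 to 89.8 CPM within the controls. With an offset for transcript length the log2 fold change of Mdm2 was -0.36. The RefSeq promoter held an exact p53 half-site, GAACTTGCCT, 186 to 177 bases before its start.

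Eda2r and Phlda3 were the other members with large differences. Eda2r encodes a receptor of the tumour necrosis factor family that binds ectodysplasin A2. It stood at 125, 125, 126 and 120.1 CPM in the controls. It stood at 37.5, 33.8, 39.4 and 34.8 CPM in the Ikzf1 libraries. The mean went from 124 ± 2.73 to 36.4 ± 2.56 CPM (SD, n = 4 each), or 29.3% of the control level, and its log2 fold change was -1.77 ± 0.05 (SE). Both described transcripts were lower without overlap, ENSMUST00000037353 from 100.5 to 28.8 CPM and ENSMUST00000126283 from 22.5 to 7.46 CPM. The gene (ENSMUSG00000034457) lies on GRCm38 chromosome X from 97333840 to 97377216 on the minus strand.

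Phlda3 encodes a small pleckstrin homology protein that restrains the kinase Akt. The controls stood at 69.5, 67.2, 64.5 and 62.9 CPM. The Ikzf1 libraries stood at 22.2, 23.3, 24.5 and 23.0 CPM. The groups lay far apart, and the mean went from 66.0 ± 2.93 to 23.3 ± 0.94 CPM (SD, n = 4 each), or 35.2% of the control level. Its log2 fold change was -1.50 ± 0.06 (SE). The gene (ENSMUSG00000041801) lies on GRCm38 chromosome 1 from 135766119 to 135769136 on the plus strand. The promoters of both genes are printed because these genes changed next most after Cdkn1a, and no capitals appear in them because the p53 half-site and TGGGAA were not found in these windows. That of Eda2r lies at chrX:97377160-97377459 on the minus strand and that of Phlda3 at chr1:135765835-135766134 on the plus strand, both in GRCm38.p6.
Eda2r promoter: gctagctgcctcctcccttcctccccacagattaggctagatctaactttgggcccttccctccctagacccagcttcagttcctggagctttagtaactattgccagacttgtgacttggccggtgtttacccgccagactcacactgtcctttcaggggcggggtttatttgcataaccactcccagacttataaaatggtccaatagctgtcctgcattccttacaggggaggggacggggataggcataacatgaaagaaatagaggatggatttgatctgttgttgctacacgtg
Phlda3 promoter: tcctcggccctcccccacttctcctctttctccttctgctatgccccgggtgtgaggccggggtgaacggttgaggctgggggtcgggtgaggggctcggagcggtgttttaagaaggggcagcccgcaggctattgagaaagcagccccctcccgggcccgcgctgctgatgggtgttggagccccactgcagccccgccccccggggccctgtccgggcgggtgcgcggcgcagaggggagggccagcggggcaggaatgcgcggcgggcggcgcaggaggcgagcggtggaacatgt

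Bax and Bbc3, which act directly in cell death, were lower by smaller amounts. Bax forms pores in the outer membrane of mitochondria, and Bbc3 encodes PUMA, a small protein that frees Bax to act. Bax stood at 106, 93.8, 101 and 96.8 CPM in the controls. It stood at 72.1, 81.9, 78.0 and 78.5 CPM in the Ikzf1 libraries. Its mean went from 99.5 ± 5.45 to 77.6 ± 4.09 CPM (SD, n = 4 each), or -0.36 ± 0.05 (SE) as log2 fold change, and the groups did not overlap. The gene (ENSMUSG00000003873, GRCm38 chromosome 7, 45461697 to 45466898, minus strand) overlaps Gm45808 on the same strand, whose mean in the authors' deposited table was 0.75 normalised counts. Its promoter held an exact p53 half-site, AGGCAAGCTT, 201 to 192 bases before the start and a TGGGAA 137 to 132 bases before it.

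Bbc3 had the widest spread of the 10 within a group, relative to its mean. The controls stood at 53.6, 47.3, 45.9 and 51.4 CPM. The Ikzf1 libraries stood at 32.8, 44.5, 38.6 and 41.8 CPM, so the highest of them came near the lowest control. The group means went from 49.6 ± 3.58 to 39.4 ± 5.05 CPM (SD, n = 4 each). This gave a log2 fold change of -0.33 ± 0.08 (SE), and -0.25 without Ikzf1 replicate 1, the lowest library. The gene (ENSMUSG00000002083) lies on GRCm38 chromosome 7 from 16308393 to 16318205 on the plus strand. None of its 3 RefSeq promoters held the p53 half-site or TGGGAA, and their base composition was rich in G and C (74.7 to 78%).

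Trp53inp1 and Zmat3 were also lower by less than 1 on the log2 scale. Trp53inp1 encodes a nuclear protein induced by stress that takes part in cell death and autophagy. It stood at 230.5, 232, 238 and 221 CPM in the controls. It stood at 184, 164, 181 and 176 CPM in the Ikzf1 libraries. The groups were clearly apart, with means of 230.3 ± 6.88 and 176 ± 8.78 CPM (SD, n = 4 each) and a log2 fold change of -0.39 (standard error 0.04). The gene (ENSMUSG00000028211) lies on GRCm38 chromosome 4 from 11156431 to 11174379 on the plus strand.

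Zmat3 encodes a zinc finger protein that binds RNA. It stood at 142, 138, 136 and 139.9 CPM in the controls. It stood at 101, 102, 101 and 111 CPM in the Ikzf1 libraries, of which the fourth was the highest. The mean went from 139 ± 2.76 to 104 ± 4.74 CPM (SD, n = 4 each), or -0.42 ± 0.04 (SE) as log2 fold change. The gene (ENSMUSG00000027663) lies on GRCm38 chromosome 3 from 32334792 to 32366014 on the minus strand. Between the libraries the transcript ENSMUST00000168566 took 0 to 36.9% of its reads, so the division between transcripts was not stable here while the sum was. With an offset for transcript length, which depends on that division, the log2 fold change was -0.33.

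Plk2, a polo-like kinase that acts in centriole duplication and in synapses, went the other way. It stood at 113, 128, 131 and 131 CPM in the controls. It stood at 146, 147, 149 and 137 CPM in the Ikzf1 libraries. The lowest Ikzf1 library lay above the highest control, and control 1 lay apart below the other controls. Its mean went from 126 ± 8.46 to 145 ± 5.15 CPM (SD, n = 4 each), 115% of the control level. Its log2 fold change was 0.20 ± 0.05 (SE), and 0.16 without control 1. In the deposited TPM values the direction was not the same: the controls had 93.2 ± 7.26 and the Ikzf1 libraries 92.6 ± 3.60 TPM. Ikzf1 itself took 17.0 to 18.6% of all TPM in the Ikzf1 libraries, which lowers the TPM of every other gene there, and after it was left out and the values were rescaled to the same total, Plk2 stood at 113 ± 4.66 TPM in the Ikzf1 libraries. The gene (ENSMUSG00000021701) lies on GRCm38 chromosome 13 from 110395046 to 110400844 on the plus strand. Its promoter, at chr13:110394794-110395093 on the plus strand in GRCm38.p6, is printed because its gene was the only one of the 10 that was higher, and the capitals mark TGGGAA read on the minus strand.
Plk2 promoter: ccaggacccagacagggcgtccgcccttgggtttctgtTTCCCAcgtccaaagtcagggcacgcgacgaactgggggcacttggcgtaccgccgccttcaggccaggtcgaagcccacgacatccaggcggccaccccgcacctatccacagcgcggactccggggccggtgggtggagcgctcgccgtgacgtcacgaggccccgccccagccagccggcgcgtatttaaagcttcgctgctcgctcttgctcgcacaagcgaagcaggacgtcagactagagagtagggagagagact
The match lay 212 to 207 bases before the annotated start, and the window held no p53 half-site.

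**Figure D3:**
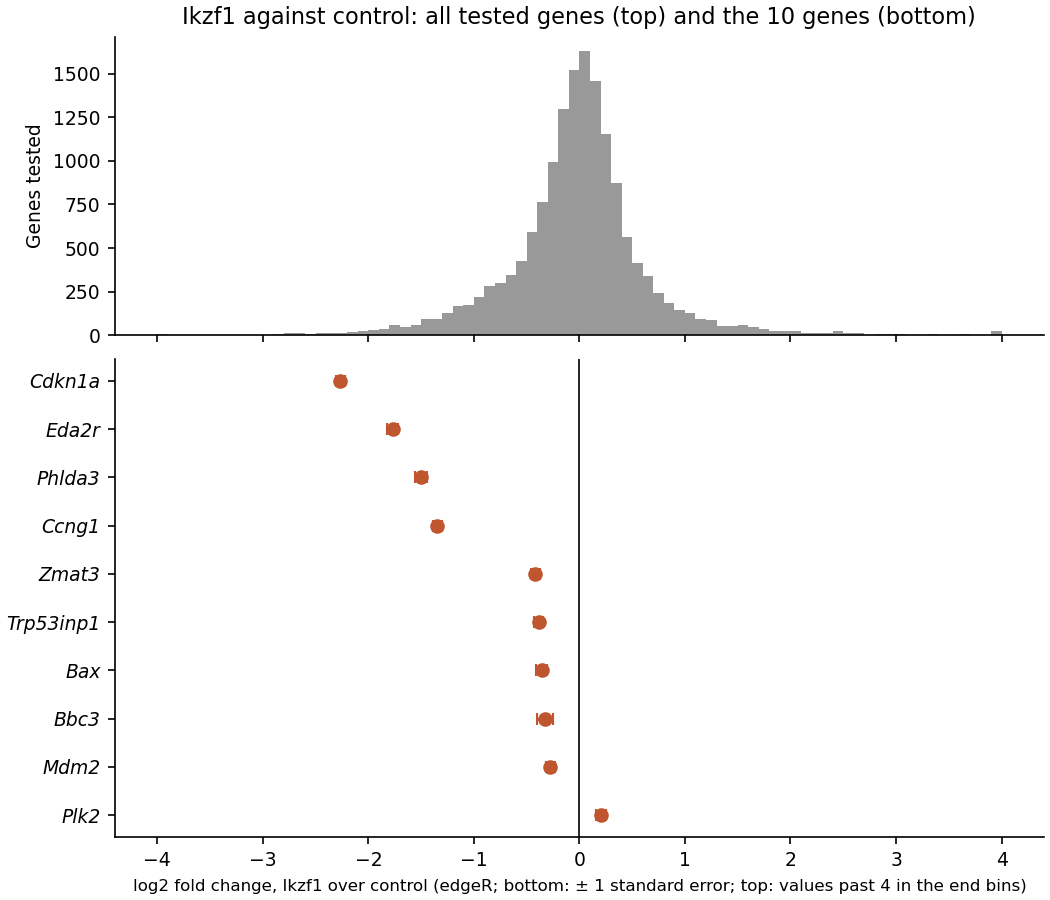
Log2 fold changes of Ikzf1 over control from edgeR: the histogram counts all 15540 tested genes, with values past 4 placed in the end bins, and the points below give the 10 genes with ± 1 standard error. Cdkn1a at -2.27 is the lowest and Plk2 at 0.20 the only one above 0.

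RefSeq promoters were given for 8 of the 10 genes, 11 promoters in all, and not for Trp53inp1 or Zmat3. The exact p53 half-site was found in 4 of the 11 promoters (of Cdkn1a, Mdm2, Ccng1 and Bax) and in 8.36% of all 32544 promoters of the same length. A full p53 site was made of adjoining half-sites with no spacer and at most 2 mismatches. It was found in 2 of the 11 promoters (of Cdkn1a and Ccng1) and in 0.802% of all promoters. Since the half-site reads the same on both strands, each place was counted once, and a full site includes the half-sites within it. The genes were chosen as known targets of p53, so these matches are a description. TGGGAA was found on either strand in 3 of the 11 promoters (of Cdkn1a, Bax and Plk2) and in 25.4% of all promoters. GGGCGG, known as the core of the Sp1 motif, was found on either strand in 9 of the 11 promoters, from 7 genes, and in 35.9% of all promoters. TATAAA was found in 1 of the 11 promoters (of Eda2r) and in 13.6% of all promoters. In these windows the half-site was not found in Eda2r and Phlda3, which were lower by more than 1 on the log2 scale. It was found in Mdm2 and Bax, which were lower by less. Sites outside the windows were not searched. The Phlda3 window ends in gaacatgt, which could be the start of a half-site cut by its edge. Any part of these motifs in the differences was not tested. The 11 promoters of these 8 genes had a median of 64.7% G and C, against 53% for all promoters.

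Levels per transcript length gave the order of the 10 genes within a library. In the controls Cdkn1a was the most abundant at 500.1 ± 4.91 TPM (SD, n = 4). Mdm2 (267 ± 19.9 TPM), Ccng1 (265 ± 8.82 TPM) and Bax (259 ± 10.8 TPM) followed, and neighbours in this order overlapped between libraries. Phlda3 (104 ± 0.63 TPM), Plk2 (93.2 TPM), Trp53inp1 (89.2 ± 1.42 TPM) and Bbc3 (76.6 ± 8.04 TPM) formed the middle, in which Plk2 overlapped Trp53inp1 and Trp53inp1 overlapped Bbc3. Eda2r (64.7 ± 2.14 TPM) and Zmat3 (37.3 ± 1.21 TPM) were the least abundant. In the Ikzf1 libraries, after Ikzf1 was left out and TPM rescaled, Mdm2 (216 ± 10.9 TPM) and Bax (213 ± 12.2 TPM) were the most abundant and overlapped. Plk2 (113 TPM), Cdkn1a (111 ± 3.21 TPM) and Ccng1 (109 ± 4.79 TPM) lay close together below them, each overlapping the next. Trp53inp1 (68.8 ± 3.95 TPM) and Bbc3 (62.9 ± 11.3 TPM) overlapped, and Phlda3 (40.6 ± 1.85 TPM), Zmat3 (30.9 ± 1.73 TPM) and Eda2r (19.9 ± 1.00 TPM) came last. By mean, Cdkn1a thus went from place 1 to 4, Ccng1 from 3 to 5 and Phlda3 from 5 to 8. Plk2 went from place 6 to 3 and Bax from 4 to 2, while Eda2r changed places with Zmat3. Places 3 to 5 in the Ikzf1 libraries were not separated, since their levels overlapped.

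**Figure D4:**
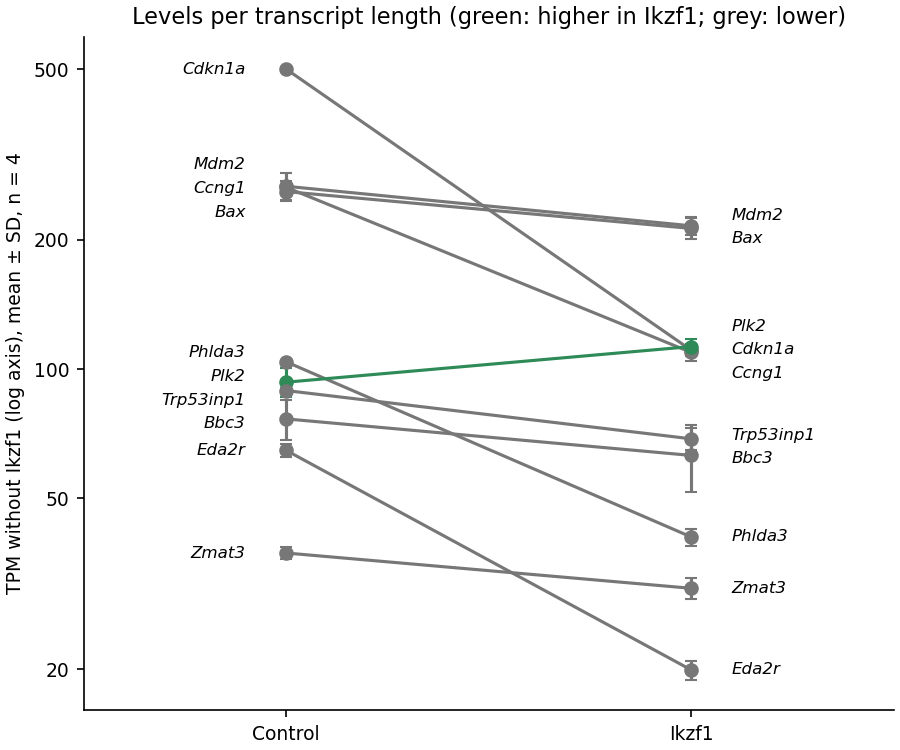
Level per transcript length of the 10 genes in each group, as TPM rescaled to the same total after Ikzf1 was left out (log axis), mean ± SD over 4 libraries, with a line joining each gene. Cdkn1a goes from 500.1 to 111 TPM, to the level of Plk2 and Ccng1, while Mdm2 and Bax stay above 200 TPM.

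The summed level of the 10 genes went from 2053 ± 28.2 to 1123 ± 22.7 CPM (SD, n = 4 each). All 10 log2 fold changes of the authors' deposited table had the sign that edgeR gave. The largest gaps were those of Phlda3 (-1.40 in the authors' deposited table), Zmat3 (-0.33) and Mdm2 (-0.36). For Cdkn1a the authors' deposited table gave -2.23.

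The other known p53 targets were described from a list of 52 genes, of which 51 were tested. Of these, 35 were lower and 9 were higher at an edgeR adjusted p under 0.05, and 7 did not pass. The share that was lower was 68.6%, beside 29.9% of all tested genes, and the median log2 fold change was -0.63 beside 0.00. This list and those below were chosen with earlier results of these data known, so their shares are a description. A log2 fold change of 1 or more in size was seen in 17 of the lower and 3 of the higher genes. Ak1, an adenylate kinase, fell from 41.6 ± 1.03 to 5.99 ± 0.51 CPM (log2 fold change -2.79, edgeR adjusted p 6.83e-22). Epha2, an ephrin receptor, fell from 161 ± 2.61 to 44.3 ± 2.67 CPM (-1.86, edgeR adjusted p 1.28e-22). Zfp365 fell from 109 ± 2.10 to 34.5 ± 2.59 CPM (-1.66). Other genes of the list rose. Perp, a membrane protein of cell junctions and cell death, rose from 9.49 ± 1.12 to 50.4 ± 3.40 CPM (log2 fold change 2.40, edgeR adjusted p 1.97e-20). Gadd45a, which acts in growth arrest and DNA repair, rose from 27.0 ± 1.72 to 72.0 ± 3.90 CPM (1.41), and Pmaip1, which encodes the cell death protein Noxa, rose from 30.0 ± 0.23 to 65.3 ± 5.97 CPM (1.12). In all 6 of these genes no Ikzf1 library overlapped a control.

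Trp53, the gene for p53, fell from 104 ± 5.80 to 70.5 ± 4.60 CPM (log2 fold change -0.57 ± 0.05, SE; edgeR adjusted p 1.6e-10), with every Ikzf1 library below every control. Mdm4, a partner of Mdm2 that also binds p53, stood at 188 ± 7.93 and 192 ± 6.70 CPM and did not pass (0.03, edgeR adjusted p 0.554), and its sign turned with an offset for transcript length. Of 23 tested regulators of p53 from a list of 25, 10 were lower (43.5%) and 6 were higher (26.1%). The shares of all tested genes were 29.9% and 29.4%, and the median of the list was 0.00. Ppp1r13l, an inhibitor of p53, fell from 11.7 ± 0.98 to 1.90 ± 0.59 CPM (-2.62, edgeR adjusted p 2.23e-13). Atr, a kinase of the DNA damage response, fell from 119 ± 5.79 to 68.3 ± 5.62 CPM (-0.80). The acetyltransferase gene Kat5 (0.28), the deacetylase gene Sirt1 (0.26) and the ubiquitin ligase gene Cop1 (0.21) rose by small amounts on the log2 scale. The value of Cop1 depended on transcript length, at 0.47 with an offset for it and 0.46 in the authors' deposited table. Kat5 overlaps Rnaseh2c on the opposite strand, and whether counting used strand was not given in the sources used here, so its value is uncertain to that extent. The amount and activity of the p53 protein were not analysed here.

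The other inhibitors of cyclin-dependent kinases moved in both directions. Of the 8 genes of this list, which include Cdkn1a, 3 were lower (37.5%) and 4 were higher (50%), with a median log2 fold change of 0.32. Among all tested genes 29.9% were lower and 29.4% were higher. Cdkn1c, which encodes p57, rose from 13.6 ± 0.81 to 57.3 ± 4.22 CPM (log2 fold change 2.07, edgeR adjusted p 2.56e-20). Cdkn3 rose from 6.63 ± 0.51 to 12.5 ± 0.72 CPM (0.92) and Cdkn2c from 10.7 ± 0.59 to 15.9 ± 1.01 CPM (0.57). Cdkn1b, which encodes p27, fell from 210.5 ± 4.96 to 177 ± 4.26 CPM (-0.25). Cdkn2d fell from 18.0 ± 1.62 to 14.8 ± 1.41 CPM (-0.28, edgeR adjusted p 0.006). Its groups overlapped, and this call was lost with an offset for transcript length. Without Cdkn1a, 2 of the other 7 genes were lower and 4 were higher, and their summed level was 257 to 271 CPM in controls and 275 to 288 CPM in the Ikzf1 libraries.

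The family of Bax and Bbc3, the BCL2 proteins that decide on mitochondrial cell death, held 15 tested genes of 19 listed. Of these 7 were lower (46.7%), Bax and Bbc3 among them, 5 were higher (33.3%) and 3 did not pass, beside 29.9% lower and 29.4% higher over all tested genes. Without Bax and Bbc3, 5 of 13 were lower and 5 were higher. Bak1, which forms pores as Bax does, fell from 31.8 ± 2.18 to 15.1 ± 0.89 CPM (log2 fold change -1.07, edgeR adjusted p 3.1e-13). Bcl2l2 (-1.12) and Mcl1 (-0.36), which protect cells, were lower too. Bcl2l1, also protective, rose from 43.0 ± 2.32 to 67.5 ± 1.96 CPM (0.65, edgeR adjusted p 1.38e-11). The cell death genes Pmaip1 (above) and Bik (1.14, from 0.77 ± 0.18 to 1.71 ± 0.71 CPM) rose. Bak1 overlaps Ggnbp1 on the opposite strand and Bcl2l2 overlaps Gm20521 on the same strand, so reads of these pairs may be shared. The median of the family was 0.00, and -0.24 with an offset for transcript length.

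Cell cycle genes were described beside Cdkn1a because p21 is known to restrain them. Any part of Cdkn1a in the levels of cell cycle genes was not tested. Of 29 tested genes of the G2/M and DREAM group, 21 were higher and 3 were lower, with a median log2 fold change of 0.21. The share that was higher was 72.4%, beside 29.4% of all tested genes. Ccnb2, a mitotic cyclin, rose from 14.6 ± 0.81 to 30.2 ± 1.06 CPM (1.05, edgeR adjusted p 2.59e-13). Foxm1, a transcription factor of the same phase, rose from 70.4 ± 5.03 to 137 ± 10.1 CPM (0.97), and the phosphatase gene Cdc25b rose from 34.1 ± 1.97 to 62.6 ± 3.67 CPM (0.88). Foxm1 overlaps Tex52 on the same strand and Cdc25b overlaps Spef1 on the opposite strand, so reads of these pairs may be shared. The 3 that fell were the mitotic cyclin gene Ccnb1 (75.5 ± 4.86 to 40.9 ± 1.87 CPM, -0.88), Cenpa (-0.73) and Plk4 (-0.27). Cyclin B genes thus moved in opposite directions.

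Of 26 G1/S genes, 8 were higher (30.8%) and 10 were lower (38.5%), shares near those of all tested genes (29.4% and 29.9%), with a median of -0.03. The D-type cyclin genes Ccnd1 (429 ± 19.5 to 223 ± 9.57 CPM, log2 fold change -0.94) and Ccnd3 (39.1 ± 1.76 to 18.9 ± 1.64 CPM, -1.04) fell, and so did Cdk6 (-0.54). E2f2 rose from 17.9 ± 1.65 to 57.3 ± 4.87 CPM (1.68, edgeR adjusted p 1.37e-17), and Mcm5 (0.40) and Rbl1 (0.31) rose by less. Ccnd1 and Ccnd3 overlap genes on the opposite strand, LTO1 and Bysl. Of the other polo-like kinases, 3 were tested beside Plk2, and Plk4 was the only one past the threshold.

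**Figure D5:**
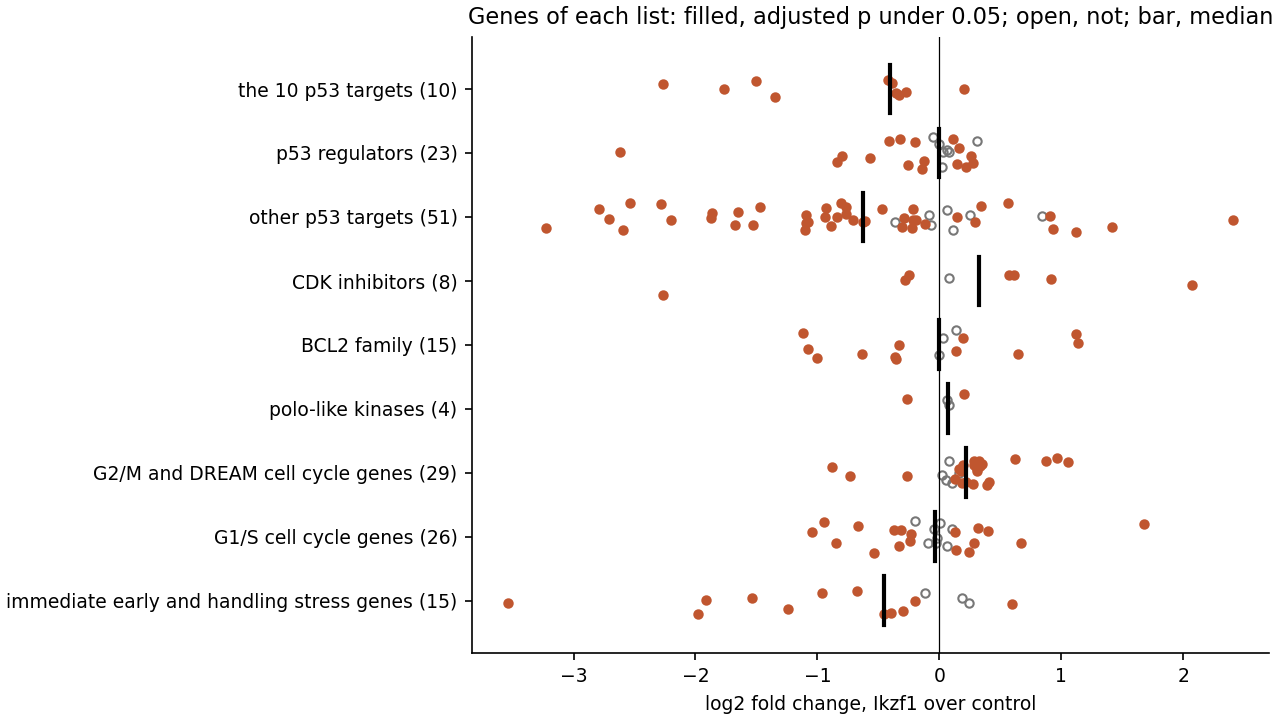
Log2 fold changes of Ikzf1 over control for the 10 genes and for each list, 1 point for each tested gene (number tested in brackets), filled where the adjusted p was under 0.05; the black bar is the median. The other p53 targets have a median of -0.63 and the G2/M and DREAM genes one of 0.21; genes that belong to several lists appear in each.

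Lists of handling genes and of cell type markers were described beside these genes, and they did not all move in the same direction. Of 15 immediate early and stress genes, 11 were lower (73.3%), 1, Klf4 (0.59), was higher (6.67%) and 3 did not pass. For all lists here, the shares of all tested genes were 29.9% lower and 29.4% higher. The immediate early and stress genes summed to 1623 to 1655 CPM in controls and 946 to 1063 CPM in the Ikzf1 libraries. Egr3 (log2 fold change -3.54), Fos (-1.98) and Myc (-1.91) had the smallest p among those that fell. Of 12 progenitor markers, 7 were lower (58.3%) and 1 was higher (8.33%). Of 9 photoreceptor precursor markers 7 were lower (77.8%) and 0 were higher by edgeR. The summed progenitor markers stood at 1941 to 2069 CPM in controls and 1461 to 1538 CPM in the Ikzf1 libraries, and the photoreceptor precursor markers at 1099 to 1272 and 734 to 847 CPM. Of 7 tested ganglion cell markers 4 were higher (57.1%) and 3 were lower (42.9%). The summed level of the ganglion cell markers was nonetheless lower, at 366.5 to 387.2 CPM in controls and 184.4 to 201.4 CPM in the Ikzf1 libraries. Of 7 amacrine and horizontal cell markers 3 were lower (42.9%) and 4 did not pass. Microglial markers were near 0, with a summed level of 2.92 to 4.64 CPM in controls and 2.92 to 4.27 CPM in the Ikzf1 libraries. Of the endothelial list, Kdr made up most of the sum (438 ± 33.0 and 216 ± 18.3 CPM), while Pecam1 (3.06 and 2.91 CPM) and Cldn5 (0.62 and 0.43 CPM) were near 0. The astrocyte markers summed to 5.08 to 6.12 CPM in controls and 3.87 to 4.73 CPM in the Ikzf1 libraries. The pigment epithelium markers summed to 22.4 to 24.5 and 14.04 to 17.99 CPM, with Rpe65 at 0. Mitochondrial genes took 2.43 to 2.95% of the reads in controls and 2.18 to 2.51% in the Ikzf1 libraries. The part of any of these in the levels of the p53 targets was not tested.

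The profiles most like that of Cdkn1a were found by the Euclidean distance over the 8 libraries between log2 levels relative to the control mean, among 11361 genes with at least 5 CPM in the controls. The closest were Smtn (distance 0.18, from 54.74 to 11 CPM) and Lmna (0.19, from 356 ± 8.21 to 78.3 ± 3.72 CPM). Smtn encodes a protein of smooth muscle actin filaments and Lmna the lamins A and C of the nuclear envelope. Nfkb2 (0.28), which overlaps Psd on the opposite strand, Gfra2 (0.30) and Itga5 (0.31) were next. With 2 groups, such a distance follows mainly the size of the difference between them.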

How the data were processed

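RNA was measured in 4 control and 4 Ikzf1 libraries, grouped by sample title. The libraries were depleted of ribosomal RNA, made with a stranded kit and sequenced as paired reads, per the labels' protocols. The files hold estimated counts and TPM per transcript, which the authors obtained with Salmon, per the submitters' processing notes and the file headers. The authors' deposited table gives, per the file headers, the mean normalised count of each gene (its mean signal over the libraries), a log2 fold change with its standard error, and a p-value, made with DESeq2 per the submitters' processing notes. Versions, annotation release and use of strand were not given in the sources used here. CUT&RUN peak lists were not used here.

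Transcripts were joined to genes through the mean normalised count: the mean of each gene was compared with that of all runs of at most 60 adjacent transcripts, at a relative tolerance of 5e-09 and for means of at least 5. Of 16815 genes, 16583 were joined (98.6%), holding 99.2 to 99.4% of a library's reads. After the means were moved slightly, 68 genes (0.404%) found a run. Genes with several matching runs (60) or a shared transcript (2) were left out.

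Estimated counts were summed to genes, rounded, filtered with filterByExpr, scaled by TMM and compared with edgeR 4.0.16 (quasi-likelihood F test, robust, two-sided, R 4.3.3), with Benjamini-Hochberg adjustment over all 15540 genes tested and a threshold of 0.05. Standard errors (SE) are the size of the log2 fold change over the root of F. On counts simulated from these libraries (15484 genes tested), edgeR recovered 96.8% of 63 genes changed by 1.5-fold. It recovered 100% of those changed by 2-fold (68) and 4-fold (69), and 4.35% of 207 calls were false. The simulation gave all genes the same dispersion, changed few genes and left out the rise of Ikzf1. In the data 59.3% of the tested genes were called, so these rates may not hold there. Alternatives were DESeq2 1.42.0, its size factors in edgeR, no filter, an offset for transcript length, Ikzf1 left out before scaling, a replicate block and leaving out each library.

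The 10 members and the gene lists were chosen with earlier results of these data known. Named genes are the 10 members, Trp53, Mdm4, up to 3 genes with the smallest p in each direction from each pathway list, and the 5 profiles nearest to Cdkn1a (distance on log2 of CPM plus 0.5). Marker genes were named as examples of their lists after their values were seen. Promoters are from RefSeq (GRCm38.p6), matched by symbol, and gene coordinates and symbols are those of the authors' deposited table.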

Additional observations from a re-analysis of the deposited data

Results flagged for a closer look

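In 5 of 108 groups of 4 libraries examined for the named genes (4.63%), 1 library lay apart from the other 3, the gap exceeding the 95% critical value of the Dixon test. About 1 group in 20 would do so by chance. Plk2 was lowest in control 1, at 113 CPM, against 128 to 131 CPM in the other controls. Zmat3 was highest in Ikzf1 replicate 4, at 111 CPM, against 101 to 102 CPM in the others. Ikzf1 replicate 4 also gave the lowest level of Pmaip1, 56.3 CPM, the others being at 68.0 to 68.4 CPM. The same library had 72.7 CPM of Lmna, below the 80.0 to 80.4 CPM of the others. Cdkn1b was highest in control 3, at 218 CPM, against 207.6 to 208.3 CPM in the others. None of these libraries overlapped the other group for its gene.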

How the results depend on the processing

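The 10 genes kept their direction under each of the 14 alternatives run, which is a description because they were chosen on this comparison. All alternatives scaled the libraries on the assumption that most genes are unchanged, or a like one, so they cannot check it. The counts of the other p53 targets, p53 regulators, CDK inhibitors, BCL2 family, both cell cycle lists and immediate early genes stayed within 1.5 times; the polo-like kinases and marker lists were run once. Leaving out 1 library at a time, all genes called ranged from 8631 to 9021 (9222 with all libraries), and the log2 fold change of Bbc3, the most variable of the 10, from -0.39 to -0.25. With an offset for transcript length Mdm4 was at -0.02, with no call in either fit, Cdkn2d at -0.22 was no longer called, and Cop1 was at 0.47. The median of the BCL2 family was -0.17 with no filter on low counts and -0.24 with the length offset, and that of the other p53 targets -0.56 with the length offset. Replicate numbers did not pair the samples: deviations of same-numbered libraries had correlations of -0.25, -0.13, 0.08 and -0.004, and no library correlated best with its own number. With the replicate block 8897 genes were called, 44 of the other p53 targets among them. Whether reads of overlapping genes were divided by strand limits the values of overlapping genes, and the division of reads among transcripts limits every value per transcript.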
